A study of Mus musculus with 8 samples.

Results

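The type I interferon-stimulated effector genes are 51 of the 52636 genes in the count table of bone marrow mesenchymal stem/progenitor cells (MSPCs). They were chosen by name, as genes whose products act downstream of interferon in cells, and each was found by its Ensembl identifier. By what their products do they fall into 9 classes, with 4 Ifit genes, 5 Oas genes, 9 sensors, 4 genes of the Parp group, 3 Slfn genes, 5 genes of the ISG15 pathway, 5 antiviral enzymes and Mx genes, 6 restriction factors and 10 other effectors. A count above 0 in every library was found for 49 of the 51, and these were tested. Oas2 and Oas3, synthetases of the Oas class, were not.

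The study asked whether niche cells differ when hematopoietic progenitors cannot respond to CXCL12, which MSPCs secrete. Each of the 8 libraries is poly(A) RNA from the MSPCs of a single C57BL/6 mouse, labeled as 6 weeks old (the methods give an older range for all mice of the study). The 4 CTR mice were Flk2-cre+ Cxcr4fl/+ and the 4 cKO mice Flk2-cre+ Cxcr4fl/fl. All mice therefore carried the Flk2-cre transgene, which the methods place on the Y chromosome and which acts in multipotent progenitors and their descendants, and the CTR mice also had a floxed Cxcr4 allele. The recombination is thus in hematopoietic cells, while the RNA is from stromal cells that were sorted, and then sorted again, as lacking CD45, Ter119, CD31 and CD144 and carrying PDGFRα and GFP from the Kitl locus, an allele that the genotype labels do not list. Cxcr4 itself had 19, 14, 13 and 4 counts in the CTR libraries and 12, 7, 11 and 0 in the cKO libraries, and counts this low in niche cells do not check the genotype.

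Interferon alpha and beta bind the receptor chains Ifnar1 and Ifnar2, and the kinases Jak1 and Tyk2 then activate factors such as Stat2. Together with Irf9, Stat2 acts in a complex that binds the interferon-stimulated response element (ISRE), a repeat of GAAA in the promoters of target genes. The effectors made from these genes detect foreign RNA and DNA, block translation, degrade or alter nucleic acids, or hold back virus particles. Many cells, stromal cells among them, express a low level of these genes without infection.

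To show letters that some of these genes hold, stretches around an ISRE-type match are printed for 6 members of different classes. These 6 were taken in the order of the unadjusted p-value of their genotype difference, among members with a match before the gene's start. The letters searched were GAAA, any 2 bases and GAAA again, on either strand of the window from 250 bases before to 50 bases after the start. They are in capitals below, and read TTTC, 2 bases and TTTC where the match is on the opposite strand. The sequences are the RefSeq promoter windows of GRCm38.p6, written in the direction of the gene.
Ifit3, chr19:34583343-34583412, plus strand: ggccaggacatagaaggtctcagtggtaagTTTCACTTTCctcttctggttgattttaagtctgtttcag
Slfn8, chr11:83020819-83020888, minus strand: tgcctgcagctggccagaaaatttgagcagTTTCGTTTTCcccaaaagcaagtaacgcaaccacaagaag
Rsad2, chr12:26456533-26456602, minus strand: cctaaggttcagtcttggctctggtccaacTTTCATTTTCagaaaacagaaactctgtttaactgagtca
Isg15, chr4:156200857-156200926, minus strand: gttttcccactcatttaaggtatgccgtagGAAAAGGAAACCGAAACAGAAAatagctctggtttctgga
Trim30a, chr7:104465194-104465259, minus strand: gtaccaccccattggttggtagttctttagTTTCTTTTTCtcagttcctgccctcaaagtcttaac
Ddx60, chr8:61928004-61928073, plus strand: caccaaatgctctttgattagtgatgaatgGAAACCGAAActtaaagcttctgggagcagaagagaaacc
In Isg15 the capitals cover 3 matches that overlap each other. In Ifit3 the printed match begins 156 bases before the start, in Slfn8 136, in Rsad2 120, in Isg15 78, in Ddx60 53 and in Trim30a 36 bases before it. Slfn8 has another window with a different start, and the same match begins 48 bases before that start. A window was given for 39 of the 51 members, and 18 of these 39 (46.2%) held the letters, against 3.44% of all 32851 windows and 3.99% of the 27025 genes that have a window. In the bases before the start alone, 13 of the 39 held them, against 2.98% of all windows and 3.46% of the genes. A match describes letters and does not show that a factor binds there.

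**Figure D1:**
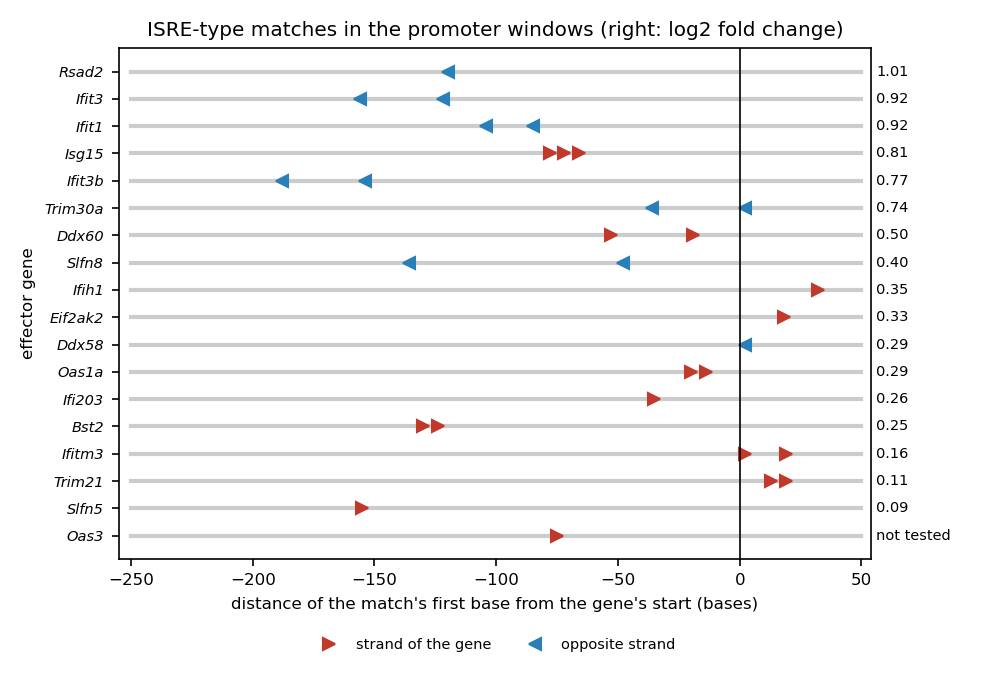
Places of the ISRE-type matches (GAAA, any 2 bases, GAAA) in the promoter windows of the 18 effector genes that hold them, as the distance in bases of the match's first base from the start of the gene, by strand. Genes are ordered by their log2 fold change of cKO over CTR, written at the right, from Rsad2 (1.01) down to Slfn5 (0.09), with Oas3 below as not tested.

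Total counts lay between 31047344 and 38216877 per library. The sorted cells had the RNA of MSPCs, with a summed level of 10 MSPC markers between 55218 and 68441 CPM (counts scaled to the same library size), of which Cxcl12 alone made up 44547 CPM in CTR and 44864 CPM in cKO on average. Osteolineage markers were abundant, with a sum over 7 of them of 10328 to 13422 CPM in CTR and 10310 to 15782 CPM in cKO, most of it Ibsp. In cKO 5 of the 7 were higher, and the unadjusted p-value was under 0.05 for 0. The summed levels were low for other cells, with 8 endothelial markers between 6.01 and 15.9 CPM and 8 leukocyte markers between 25.1 and 44.1 CPM. The defining leukocyte marker Ptprc had 0 to 32 counts. All 7 of 7 erythroid markers were higher in cKO on average, 0 of them with an unadjusted p-value under 0.05, and their sum was 66.0 to 189 CPM in CTR and 142 to 270.3 CPM in cKO. Of 8 neutrophil markers 4 were tested and all 4 were higher, with sums of 25.8 to 127 CPM in CTR and 43.4 to 144.7 CPM in cKO. Of 11 macrophage and monocyte markers 7 were tested, 6 were higher and 1, C1qb, had an unadjusted p-value under 0.05 (2.78 ± 1.66 CPM in CTR and 6.46 ± 2.77 CPM in cKO, mean ± SD, 4 mice each), with sums of 37.8 to 63.3 CPM in CTR and 46.4 to 65.1 CPM in cKO. Markers of B and plasma cells, of which 0 of 8 were tested, summed to 122 CPM in CTR3 and to at most 4.55 CPM in any other library. Of 5 markers of plasmacytoid dendritic cells, a major source of type I interferon, Siglech, Ccr9 and Ly6d were at or near 0, with no value above 1.92 CPM. The sum of the list, 115 to 178 CPM in CTR and 97.6 to 127 CPM in cKO, was almost all from Tcf4 and Irf8, which other cells also express, and neither was higher in cKO. The part of these cells in the results was not tested. The library cKO1 stood apart from the others in the effector genes, so that values without it are given below, and the title of each sample ends in a number of unstated meaning that is 26 to 32 in CTR2, CTR4, cKO2 and cKO4 and 67 to 86 in the other libraries.

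The effectors covered a wide range of abundance in MSPCs. Per kilobase of exon, Ifitm3, a membrane protein that keeps virus from fusing with endosomes, was the highest at 1805 CPM per kb averaged over the 8 libraries, and ranked 15 among the 14598 genes tested. Lgals3bp, a secreted glycoprotein, followed at 426 CPM per kb, and then Bst2 (tetherin), which holds budding virus at the cell surface, at 174, Ifi27 at 147, Isg15 at 84.6 and Ifit1 at 40.5. The median member stood at 10.4 CPM per kb, against 4.58 for all genes tested. At the lower end Mx1, a GTPase whose allele is defective in C57BL/6 mice, had 0.197 CPM per kb. Oas2 had 58 counts in CTR4 and 0 in the other 7 libraries, and Oas3 had 14 counts in CTR1, 19 in cKO2, 17 in cKO3 and 0 in the others. A library at 0 allows up to 3 counts here, by counting error alone.

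**Figure D2:**
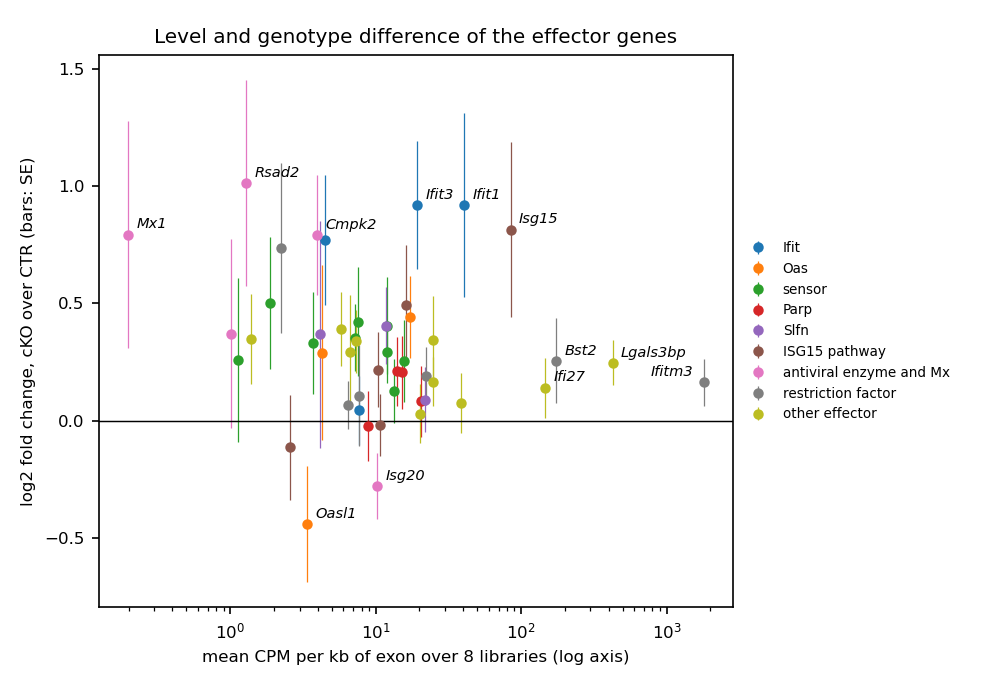
Mean level of each tested effector gene over the 8 libraries (CPM per kb of exon, log axis) against its log2 fold change of cKO over CTR, with the standard error as bars and the class as color. Fold changes of the most abundant genes Ifitm3 (0.16) and Lgals3bp (0.25) are smaller than those of Isg15 (0.81), Ifit1 (0.92) and Rsad2 (1.01).

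No effector gene passed the test, and most had a small positive difference. Of the 49 tested, 44 had a higher fitted level in cKO, against 49.8% of all genes tested, and the median log2 fold change was 0.29, against -0.0013 over all genes. An unadjusted p-value under 0.05 with a higher level in cKO was found for 11 of the 49 (22.4%), where it was found for 2.35% of all genes. With a lower level it was found for 0 members and 2.08% of all genes. With edgeR's quasi-likelihood test and Benjamini-Hochberg adjustment over all genes, the adjusted p-value of every member was 0.999, and 0 of the 14598 genes had one under 0.05, with 646 under 0.05 unadjusted. The methods name a likelihood ratio test in DESeq2 with a correction for batch, and do not list the batches. The edgeR test above has no such term. Whether the range of title numbers is that batch is not known. The test nearest to the one in the methods is a likelihood ratio test in DESeq2 with this range as a term. It called 47 genes (0.322%), and Ifit3 (adjusted p = 0.00239 in DESeq2) and Cmpk2 (adjusted p = 0.00119 in DESeq2), both higher in cKO, were the members among them. Without that term DESeq2 called 22 genes (0.151%), of which 0 were members.

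In bulk RNA, a different number of expressing cells and a different amount of RNA in each cell cannot be told apart. Beyond their averages the groups overlapped for nearly all members. In 4 of the 49, Ifit3b, Rsad2, Lgals3bp and Phf11d, every cKO library was above every CTR library, which held for 1.34% of all genes. In Isg20 alone every cKO library was below every CTR library, which held for 1.29% of all genes. The median by class was highest in the Ifit genes (0.84) and in the antiviral enzymes and Mx genes (0.79). It was 0.37 in the Slfn genes, 0.33 in the sensors, 0.29 in the 3 Oas genes tested, 0.27 in the other effectors, 0.22 in the ISG15 pathway, 0.18 in the restriction factors and 0.14 in the Parp group.

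**Figure D3:**
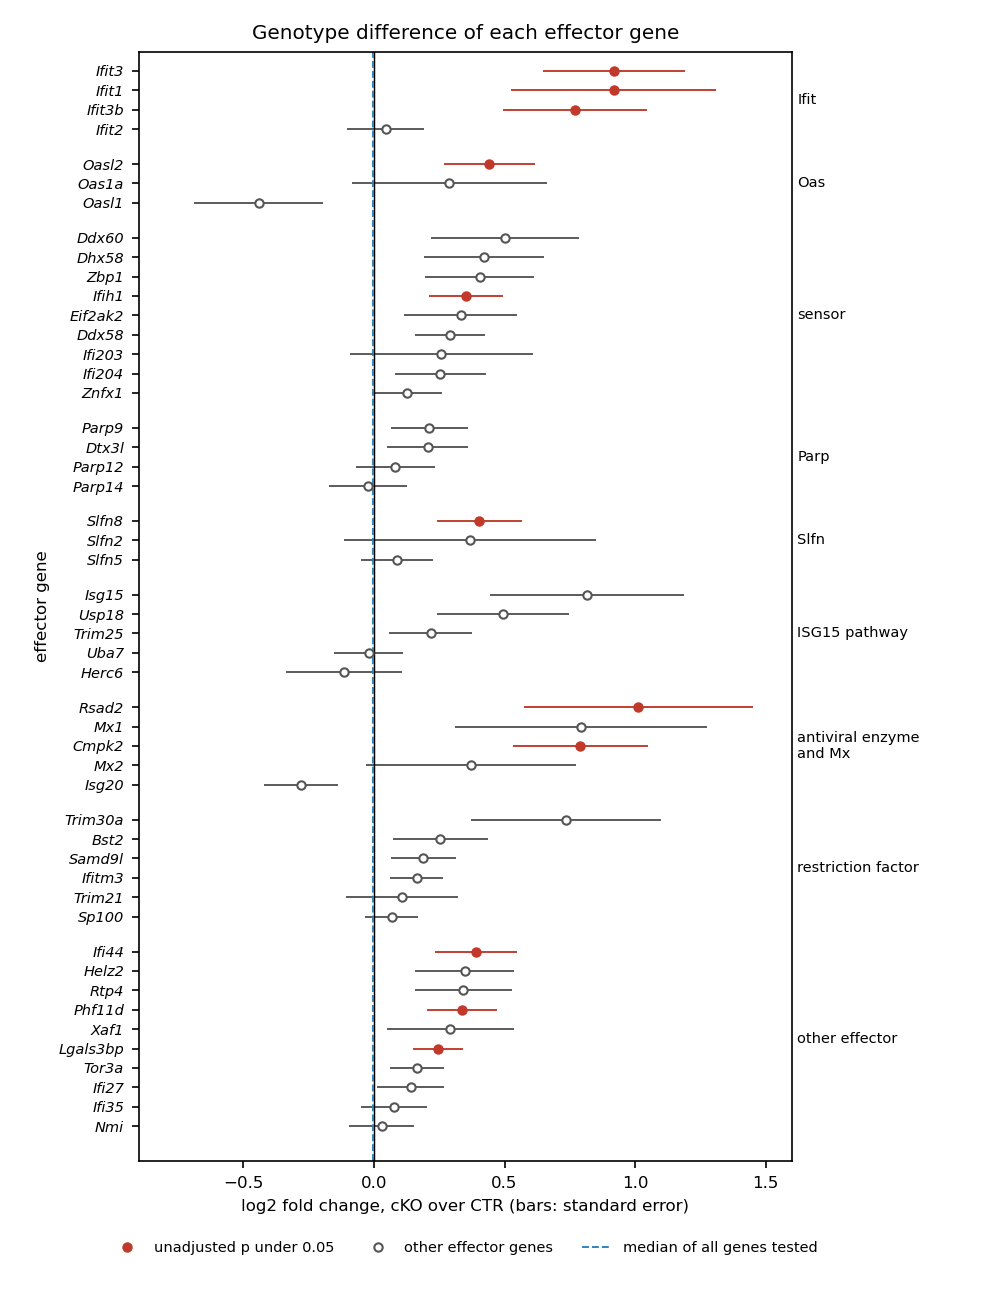
Log2 fold change of cKO over CTR for each of the 49 tested effector genes, by class, with the standard error as bars. Filled red points mark the 11 genes with an unadjusted p-value under 0.05, all to the right of 0, and the dashed line marks the median of all genes tested (-0.0013).

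The Ifit genes, whose products bind viral RNA and block its translation, lie in a cluster on chromosome 19 (GRCm38). Ifit1 was at 88.8, 52.6, 96.6 and 59.3 CPM in CTR1 to CTR4 and at 271, 82.0, 137 and 72.7 CPM in cKO1 to cKO4. The library cKO1 was well above all others, cKO3 came next, and cKO2 and cKO4 lay within the range of the CTR libraries. Both were above CTR2 and CTR4, the CTR libraries of their own title number range. In edgeR the difference was 0.92 on the log2 scale (standard error 0.39, unadjusted p = 0.0410), and 0.38 without cKO1. With the title number range as a term edgeR gave 0.80 (standard error 0.22, unadjusted p = 0.00526, adjusted p = 0.875). Ifit3 was at 29.1, 21.5, 27.2 and 15.8 CPM in the CTR libraries and at 65.6, 39.2, 44.9 and 27.3 CPM in the cKO libraries. Only cKO4 was inside the CTR range. The difference of 0.92 (standard error 0.27) had the smallest unadjusted p-value of all members (0.00704, edgeR), and it was 0.66 without cKO1.

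Ifit3b, a near-identical copy of Ifit3 between which counting can split reads, had 7.41, 6.81, 7.89 and 4.36 CPM in CTR and 14.7, 12.0, 10.5 and 7.96 CPM in cKO, with no overlap of the groups (log2 fold change 0.77, standard error 0.28). With the counts of the copies summed, the log2 fold change was 0.89. Ifit2, the neighbor of Ifit3 in the same cluster, did not share the pattern of the others, with 24.6, 27.8, 31.9 and 35.2 CPM in CTR and 31.4, 30.2, 34.6 and 27.0 CPM in cKO. Its groups overlapped throughout and its log2 fold change was 0.045 (standard error 0.15). Over the 8 libraries its log2 level had a Pearson r of 0.12 with the mean of the other members, against 0.95 for Ifit1, a description over libraries that also share depth and handling.

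**Figure D4:**
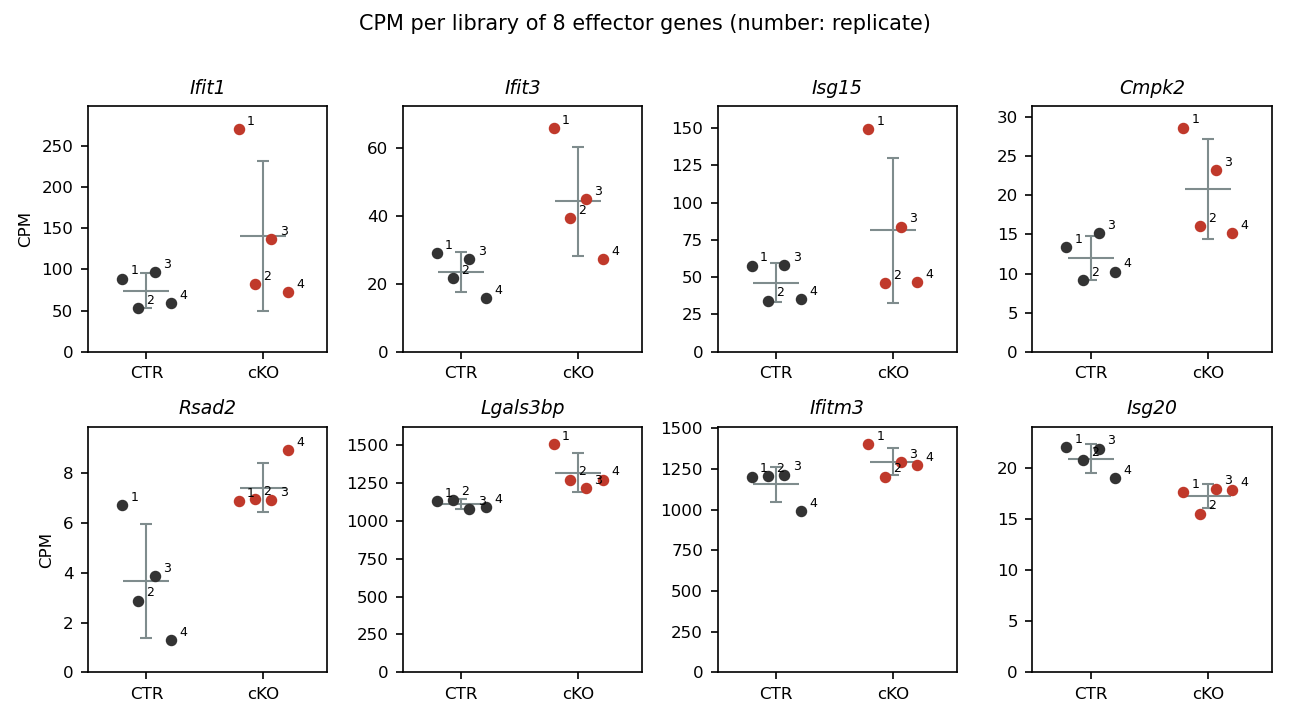
CPM in each library of 8 effector genes, by genotype, with the replicate number beside each point and the mean ± SD in gray (n = 4 mice each). In Ifit1 and Isg15 the mouse cKO1 (271 and 149.7 CPM) carries much of the difference, in Rsad2 and Lgals3bp the groups do not overlap, and Isg20 is lower in every cKO mouse.

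Of the Oas class, the synthetases of short oligoadenylates that switch on RNase L and their relatives, Oasl2 was the most abundant. It was at 78.6, 88.6, 112 and 90.5 CPM in CTR and at 172, 113, 115 and 102 CPM in cKO (log2 fold change 0.44, standard error 0.17, unadjusted p = 0.0289 from edgeR, 0.25 without cKO1). Only cKO4 was below the highest CTR library, CTR3. Oasl1, which lies next to Oasl2 on chromosome 5 and whose product is known to restrain the translation of Irf7, had the most negative log2 fold change of all members. Its level was 11.3, 9.59, 9.66 and 9.87 CPM in CTR and 7.81, 5.47, 10.2 and 6.29 CPM in cKO, so that 3 of 4 cKO libraries were below the CTR range (log2 fold change -0.44, standard error 0.25, unadjusted p = 0.105 from edgeR). An antisense gene overlaps Oasl1, and the strand setting of the counting is not given in the sources used here. Oas1a had a log2 fold change of 0.29 with a standard error of 0.37.

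All 9 sensors had a positive log2 fold change, between 0.13 and 0.50, and 1 of them had an unadjusted p-value under 0.05. This was Ifih1 (MDA5), which detects long double-stranded RNA, with 58.6, 47.0, 51.8 and 47.9 CPM in CTR and 82.6, 59.4, 65.2 and 55.3 CPM in cKO (log2 fold change 0.35, standard error 0.14, unadjusted p = 0.0309 from edgeR). Only cKO4 was below the highest CTR library, and without cKO1 the difference was 0.22. Its relatives Ddx58 (RIG-I), which detects uncapped RNA, and Dhx58 (LGP2), which tunes both, had log2 fold changes of 0.29 and 0.42. Ddx60, a helicase linked to RNA sensing, had the largest difference of the class, 0.50, with a standard error of 0.28, and 0.27 without cKO1. It was at 10.03, 12.0, 13.0 and 18.6 CPM in CTR and at 27.3, 21.3, 12.9 and 14.3 CPM in cKO, and cKO1 and cKO2 were above the CTR range while cKO3 and cKO4 were inside it.

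Ifi204, a sensor of DNA and the most abundant of the sensors per kilobase, was at 56.1, 44.5, 49.9 and 53.3 CPM in CTR and at 85.4, 53.1, 54.8 and 49.7 CPM in cKO. The library cKO1 alone was above the CTR range, and the log2 fold change of 0.25 was 0.04 without it. Zbp1, a sensor of left-handed nucleic acid, had 0.41, the kinase Eif2ak2 (PKR), which stops translation upon binding double-stranded RNA, 0.33, and Znfx1 0.13, all as log2 fold changes. Ifi203 overlaps Mndal on the same strand, so its value of 0.26 is uncertain, and it was highest in cKO4 and lowest in cKO1.

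The Parp group holds ADP-ribosyltransferases and the ubiquitin ligase Dtx3l, which works as a pair with Parp9. Their log2 fold changes had the smallest median of the classes and lay between -0.023 and 0.21, and 0 of 4 had an unadjusted p-value under 0.05. Parp9 was at 60.1, 55.0, 80.4 and 57.6 CPM in CTR and 87.0, 65.3, 74.7 and 66.0 CPM in cKO (0.21, standard error 0.15). Parp12, which acts on virus proteins, was at 88.7, 68.6, 80.6 and 79.8 CPM in CTR and 97.6, 94.1, 83.8 and 61.0 CPM in cKO, with the lowest of all 8 values in cKO4 (0.083, standard error 0.15). Parp14 was at 94.7, 76.4, 96.6 and 63.9 CPM in CTR and 94.6, 83.0, 74.8 and 73.8 CPM in cKO (-0.023, standard error 0.15). For Parp12 and Parp14 the genotypes overlapped in nearly their whole range, and the sign of the difference changed on leaving out single libraries. The gene bodies of Parp9 and Dtx3l overlap on opposite strands, and both had similar differences, 0.21 and 0.21.

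Among the Schlafen genes, which restrain virus translation and cell growth, Slfn8 had 37.7, 49.0, 36.6 and 41.7 CPM in CTR and 68.6, 52.9, 55.7 and 41.4 CPM in cKO. Here 3 of 4 cKO libraries were above the CTR range and cKO4 was inside it (log2 fold change 0.40, standard error 0.16, unadjusted p = 0.0329 from edgeR). Slfn5, the most abundant of the class per kilobase, was at 121, 123, 142 and 149.7 CPM in CTR and 179.6, 130.1, 120.2 and 141 CPM in cKO, with a log2 fold change of 0.09 that became -0.045 without cKO1. Slfn2 had 0.37 with a standard error of 0.48, and it was lowest in cKO2 and highest in cKO4. Both Slfn2 and Slfn5 have an overlapping antisense gene.

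Isg15 is a ubiquitin-like protein that is attached to other proteins by Uba7, Herc6 and partners and removed by Usp18. It was at 57.8, 34.3, 57.9 and 35.5 CPM in CTR and 149.7, 46.0, 84.0 and 46.5 CPM in cKO. Library cKO1 was the highest by far and cKO3 the next, while cKO2 and cKO4 lay inside the CTR range. Both were above CTR2 and CTR4, which share their title number range. The log2 fold change of Isg15 of 0.81 (standard error 0.37, unadjusted p = 0.0528 from edgeR) was 0.34 without cKO1. With the title number range as a term edgeR gave 0.71 (standard error 0.19, unadjusted p = 0.00482, adjusted p = 0.875). The protease Usp18, which also limits signaling at the interferon receptor, had a log2 fold change of 0.49 (standard error 0.25) and of 0.22 without cKO1. The enzymes of attachment differed less, with -0.019 for Uba7 and -0.11 for Herc6. Herc6 was at 17.6, 25.3, 21.4 and 35.8 CPM in CTR and 21.4, 28.7, 21.1 and 21.3 CPM in cKO, with its highest value in CTR4 and the 4 cKO values inside the CTR range. Trim25, a ligase that activates RIG-I, had a log2 fold change of 0.22.

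Cmpk2 and Rsad2 are neighbors on chromosome 12 in opposite directions, and encode a mitochondrial nucleotide kinase and viperin, which turns CTP into a chain terminator of viral polymerases. Cmpk2 had 13.4, 9.20, 15.2 and 10.2 CPM in CTR and 28.7, 16.0, 23.2 and 15.2 CPM in cKO. The cKO libraries were all above 3 of the 4 CTR libraries, and cKO4 missed the value of CTR3 by a small margin (log2 fold change 0.79, standard error 0.26, unadjusted p = 0.0117 from edgeR, 0.59 without cKO1). Rsad2 had 6.73, 2.88, 3.85 and 1.28 CPM in CTR and 6.89, 6.96, 6.92 and 8.92 CPM in cKO. The cKO values were close to each other, and CTR1 was just below them while the other CTR libraries were lower. Its log2 fold change of 1.01 (standard error 0.44, unadjusted p = 0.0436 from edgeR) was the largest of all members, 2.02-fold, and it was 2.00 in the libraries with title numbers 26 to 32 and 0.43 in those with 67 to 86.

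Isg20, an exonuclease that degrades single-stranded RNA, went the other way. It was at 22.1, 20.8, 21.9 and 19.0 CPM in CTR and 17.6, 15.6, 18.02 and 17.9 CPM in cKO, without overlap, with a log2 fold change of -0.28 (standard error 0.14, unadjusted p = 0.0755 from edgeR) and -0.29 without cKO1. The Mx GTPases had wide errors, with 0.79 for Mx1 (standard error 0.48) and 0.37 for Mx2 (standard error 0.40).

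Restriction factors act on the virus particle or its parts. Ifitm3 was at 1202, 1208, 1214 and 992 CPM in CTR and 1402, 1202, 1293 and 1273 CPM in cKO, so that CTR4 was the lowest of all and cKO1 the highest while the others lay between 1202 and 1293 CPM (log2 fold change 0.16, standard error 0.10). Trim30a, a mouse gene of the Trim family, had 6.86, 11.8, 3.45 and 5.65 CPM in CTR and 12.8, 9.01, 9.44 and 14.9 CPM in cKO, with CTR2 inside the cKO range and the other CTR libraries below it (log2 fold change 0.74, standard error 0.36, unadjusted p = 0.0704 from edgeR). Bst2 had a log2 fold change of 0.25, Samd9l 0.19, Trim21, a receptor for antibody-bound virus in the cytosol, 0.11, and Sp100, a protein of nuclear bodies, 0.068.

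All 10 other effectors had a positive log2 fold change, between 0.029 for Nmi and 0.39 for Ifi44, and 3 had an unadjusted p-value under 0.05. Lgals3bp was at 1131, 1139, 1074 and 1091 CPM in CTR and 1505, 1271, 1216 and 1271 CPM in cKO, without overlap, and it was the most precisely measured of the members that did not overlap (log2 fold change 0.25, standard error 0.10, unadjusted p = 0.0272 from edgeR, 0.17 without cKO1). In CPM this is the largest difference of any member, from 1109 ± 31.4 CPM to 1316 ± 129 CPM (mean ± SD, n = 4 each). Phf11d, a PHD finger protein, was at 33.0, 27.1, 27.0 and 29.97 CPM in CTR and 43.9, 33.9, 35.0 and 35.0 CPM in cKO, where the lowest cKO library was just above the highest CTR library (log2 fold change 0.34, standard error 0.13). Ifi44 was at 38.8, 24.5, 27.4 and 32.7 CPM in CTR and 44.1, 36.5, 38.8 and 42.3 CPM in cKO, with CTR1 inside the cKO range (0.39, standard error 0.16). Rtp4, a chaperone of receptors, had 0.34, the coactivator Helz2 0.35, the apoptosis factor Xaf1 0.29, Tor3a 0.17, the mitochondrial protein Ifi27 0.14 and Ifi35, which binds Nmi, 0.077.

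The members can be summed up for each library. Measured against the mean of the CTR libraries, the average log2 deviation of the 49 members was 0.091, -0.041, 0.079 and -0.13 in CTR1 to CTR4 and 0.56, 0.13, 0.28 and 0.22 in cKO1 to cKO4. Each cKO library was thus above each CTR library on this average, by a small margin in cKO2 and by the largest in cKO1. The highest of all 8 values was in cKO1 for 29 of the 49 members (59.2%), against 14.6% of all genes tested. It was in cKO4 for 7 members (10.5% of all genes), Helz2, Ifi203, Mx1, Oas1a, Rsad2, Slfn2 and Trim30a. In the Ifit class the deviation was 1.18 in cKO1, 0.47 in cKO2, 0.71 in cKO3 and 0.11 in cKO4, and in the antiviral enzymes and Mx genes it was 0.60, 0.49, 0.67 and 0.47.

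**Figure D5:**
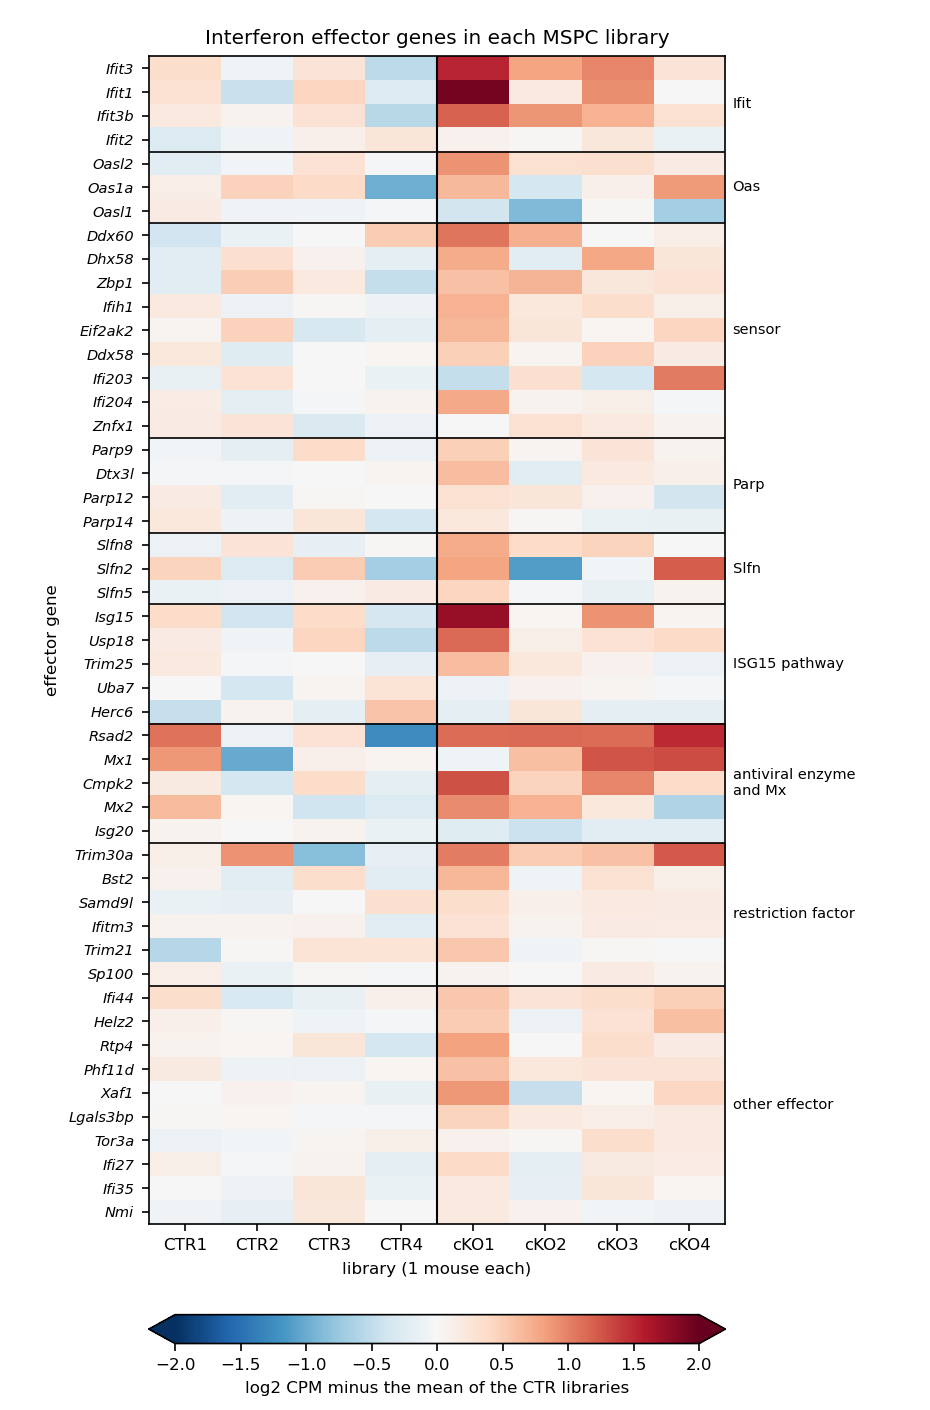
Log2 CPM of each tested effector gene in each library minus the mean of the 4 CTR libraries, by class (color, from -2 to 2). The column of cKO1 is the reddest, with the highest of 8 values in 29 of 49 genes. Isg20 is pale blue in every cKO library, Oasl1 is blue in all of them but cKO3, and Ifit2 is pale throughout.

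Without cKO1, 41 of the 49 members were higher in cKO, against 48.2% of all genes, but the median log2 fold change was 0.17 and only 2 members had an unadjusted p-value under 0.05, against 1.88% of all genes. Leaving out cKO1 also leaves fewer cKO than CTR libraries with title numbers 67 to 86, and this fit had no term for the range. The part of this imbalance in the change was not tested. The log2 fold change of 26 members moved by over 1.5 times, in 24 of them to a smaller value or across 0. Besides the values given with the genes above, it became 0.16 for Rtp4, 0.035 for Xaf1, 0.10 for Bst2, 0.054 for Trim25, 0.21 for Eif2ak2, 0.11 for Parp9, 0.035 for Dtx3l, 0.13 for Mx2, 0.24 for Slfn2, 0.19 for Oas1a, 0.05 for Ifi27 and 0.036 for Ifi35. It turned sign for 5, Parp12, Slfn5, Uba7 (0.012), Trim21 (-0.057) and Nmi (-0.035), and it was larger in size for Ifi203 (0.44) and Parp14 (-0.11). By title number, the median difference of mean log2 CPM was 0.19 in the libraries with 26 to 32, which do not include cKO1, and 0.35 in those with 67 to 86. In both ranges 36 of the 49 members were higher in cKO, against 26.4% of all genes. A test of the difference between the ranges with edgeR gave 0 members with an adjusted p-value under 0.05 and 2 with an unadjusted one (Slfn8 and Dhx58), against 502 of all genes (3.44%) unadjusted and 0 adjusted. By abundance per kilobase, all of the 17 most abundant members were higher in cKO, as were 13 of the 16 below them and 14 of the 16 least abundant, with median log2 fold changes of 0.25, 0.21 and 0.37.

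The genes that transmit the signal were described from a separate list. Of 23 genes of interferon signaling, 20 were tested, 9 were higher in cKO and 4 of these had an unadjusted p-value under 0.05 (against 49.8% and 2.35% of all genes), with a median log2 fold change of -0.022. The 4 were the transcription factors Stat2, Irf9, Irf7 and Irf1, and 0 of the 20 had an adjusted p-value under 0.05 in edgeR. Irf7, the factor that amplifies interferon production, was at 47.3, 53.4, 50.6 and 51.6 CPM in CTR and 109.5, 66.3, 73.9 and 66.7 CPM in cKO, without overlap (log2 fold change 0.64, standard error 0.16, unadjusted p = 0.00294 from edgeR). Stat2 was at 60.3, 68.4, 52.7 and 68.9 CPM in CTR and 106, 93.1, 75.9 and 70.6 CPM in cKO, also without overlap (0.46, standard error 0.15). Irf9, its partner, was at 85.6, 80.2, 81.4 and 62.2 CPM in CTR and 141, 94.9, 97.5 and 83.0 CPM in cKO, with cKO4 inside the CTR range (0.42, standard error 0.17). For the receptor chains and kinases the log2 fold changes were -0.045 for Ifnar1, 0.046 for Ifnar2, -0.10 for Jak1 and 0.29 for Tyk2.

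Of the interferons themselves Ifnb1, Ifna4 and Ifng were looked at, and they had 0 counts in all 8 libraries, which allows up to 3 counts in each. Genes known as targets of interferon gamma, many of which also respond to type I interferon, had a median log2 fold change of 0.38 over the 18 of 20 tested. Of these, 17 were higher in cKO (49.8% of all genes), 6 of them with an unadjusted p-value under 0.05 (2.35% of all genes) and 0 with an adjusted one in edgeR. One of the 6, the GTPase Iigp1, was at 562, 509, 683 and 352 CPM in CTR and 853, 1036, 671 and 509 CPM in cKO, with cKO4 level with CTR2 and below CTR1 and CTR3 (0.54, standard error 0.24). Cxcl10, a chemokine of the same group, was the exception with -0.065 (standard error 0.33).

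Of the 49 members, 30 had a Pearson r above 0.5 with the mean of the others over the 8 libraries, and 6 had one below 0, with a median of 0.63, against 0.0090 over all genes tested. These r values rest on 8 points, of which cKO1 is the farthest. Ifih1 (0.95), Ifit1 (0.95), Cmpk2 (0.95) and Isg15 (0.95) were the most alike, and Herc6 (-0.48) and Isg20 (-0.43) the least. Of 9366 other genes that averaged 10 CPM or more, those nearest to the members' mean were Akr1c13 (0.99), Usp31 (0.97), Kdelc1 (0.96), Alpl (0.95), Rnaset2b (0.95), Necap1 (0.95), Mad2l2 (0.94), Creb3l1 (0.94), Atp6ap1 (0.92) and Triap1 (0.92). None of these 10 is in the lists of interferon genes used here, and Alpl, the alkaline phosphatase of bone-forming cells, was at 292, 227, 272 and 241 CPM in CTR and 435, 253, 307 and 305 CPM in cKO. Irf9 had 0.92 and Irf7 0.92, while Irf8, a factor of myeloid and dendritic cells, had -0.89 and was at 27.8, 39.8, 28.5 and 42.8 CPM in CTR and 9.81, 22.6, 14.9 and 40.8 CPM in cKO.

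With the sequences printed above in view, the tested members that hold such an ISRE-type match in their window had a median log2 fold change of 0.35 (17 members, from 0.09 to 1.01), and 6 of them had an unadjusted p-value under 0.05. Those with a window and no match had a median of 0.19 (21 members, from -0.44 to 0.79), and 5 of them had such a p-value. Cmpk2, Oasl2 and Lgals3bp are among the latter, and Ifitm3 and Slfn5 among the former, so that the ranges overlapped widely. Over all genes tested, 2.35% were higher in cKO with an unadjusted p-value under 0.05 in edgeR and 2.08% were lower. All genes with and without the letters were not compared in this way. A window without these letters says nothing about binding.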

How the data were processed

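Poly(A) RNA of sorted MSPCs was sequenced from 4 CTR and 4 cKO mice. The authors aligned trimmed reads with HISAT2 (GRCm38), counted genes with HTSeq-count, and deposited the raw counts, which hold no normalization. The versions and the strand setting are not given in the sources used here. The methods name GENCODE v27 as the gene model, and symbols, exon lengths and coordinates used here are those of GENCODE M21 on GRCm38, so that lengths may differ. Of 52636 rows, 52403 were matched to a symbol by identifier without its version.

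The members and gene lists were chosen with earlier results of these data known. The 14598 genes whose counts exceed 0 in all 8 libraries were scaled by TMM and tested with edgeR 4.0.16 (glmQLFit and glmQLFTest, no covariates, Benjamini-Hochberg adjustment over all genes, threshold 0.05) in R 4.3.3. This filter leaves out genes silent in any library. CPM of members refer to the counts of the genes tested, after TMM scaling, those of marker, signaling and interferon gamma genes to all genes with a count, scaled likewise, and log2 CPM used a prior count of 2. The standard error is the log2 fold change over the square root of edgeR's F. Differences within a title number range are of mean log2 CPM, with 2 libraries of each genotype in a range. Values in every library are given for the most abundant member per kilobase and the smallest p-value in each class, the 8 largest and 4 smallest log2 fold changes among members with a mean of at least 1 CPM, Ifit3b, Stat2, Irf9 and Irf7. A gene of the signaling list is not reported here and was left out of its counts. Ifit2, Phf11d, Ifi44, Iigp1, Irf8, Alpl, Cxcl10 and C1qb, and the members not tested, were given values after these had been seen. The lists of members were not tested as sets.

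Alternatives were other scalings and filters, DESeq2 1.42.0, limma-voom (limma 3.58.1), the title number range as a term, the replicate number as a block, summed counts of Ifit3 and Ifit3b, and each library left out in turn. The scripts were tested on simulated data. The changes simulated were larger than those of all members except Rsad2, so smaller differences were not covered. No pair of libraries of a genotype agreed within counting noise (chi-square per gene at least 56.8). Mice are separate animals, and limits at 0 counts cover counting error only. The single-cell data of the study were not analysed here.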

Additional observations from a re-analysis of the deposited data

Results flagged for a closer look

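In each genotype the library farthest from the rest was compared with the spread of its 4 libraries. This covered 62 groups of 4, where chance alone marks about 1 in 20, and not every quantity described. Phf11d was not covered, with 43.9 CPM in cKO1 and 33.9, 35.0 and 35.0 CPM in cKO2 to cKO4. The gap to the nearest library was taken as a share of the whole range in log2 CPM. For 4 of the members covered, a library had a gap above Dixon's critical share for 4 values. For Rsad2 this was cKO4 at 3.17, above the others of cKO, with a gap of 0.964 of the range. For Herc6 it was cKO2 at 4.85, above the others of cKO, with a gap of 0.961 of the range. For Ifitm3 it was CTR4 at 9.95, below the others of CTR, with a gap of 0.951 of the range. For Isg20 it was cKO2 at 3.97, below the others of cKO, with a gap of 0.856 of the range.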

How the results depend on the processing

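The median log2 fold change of the members stayed positive in all 20 alternatives, and 410 of 419 values of the 21 named members kept their direction and their side of the threshold. The threshold is that of the adjusted p-value, which was 0.999 for every member in the edgeR test of the report. Keeping its side therefore says little about the size of a difference. Ifit1, which went from 0.92 to 0.38 without cKO1, was counted as kept. With the range of title numbers as a term, the likelihood ratio test of DESeq2 called 2 members (Ifit3 and Cmpk2). Over all genes, 1 gene passed with edgeR's own expression filter, with no filter and with a mean of at least 1 CPM, 23 with DESeq2's Wald test, 22 with its likelihood ratio test and 47 with the title number range, against 0 in the report, and the cause was not tested. With the title number range as a term in edgeR, 16 members were higher in cKO with an unadjusted p-value under 0.05 (2.79% of all genes). In DESeq2's likelihood ratio test with that term it was also 16 (3.08% of all genes). With the term edgeR called 0 members after adjustment. On leaving out single libraries, the number of members with an unadjusted p-value under 0.05 that were higher in cKO was 2 without cKO1, 7 without CTR3 or CTR4 and 18 without cKO2, against 11. Of all genes this held for 1.88% without cKO1, 2.10% without CTR3, 2.31% without CTR4, 2.12% without cKO2 and 2.35% with every library. The number with every cKO library above every CTR library ran from 4 to 9, with fewer libraries to exceed. The share of all genes was taken with every library in (1.34%) and not for each library left out. The log2 fold change ran from -0.0026 (without cKO1) to 0.21 for Parp12, from -0.045 (without cKO1) to 0.16 for Slfn5, from -0.25 to 0.11 (without CTR4) for Herc6 and from -0.13 to 0.054 for Parp14, which was positive without CTR1 (0.047), CTR3 (0.054), cKO3 (0.017) or cKO4 (0.022). Of the 39 members with a promoter window, 19 held GAANNGAA, whose repeats lie a base closer. It is held by 20.1% of all windows and 22.7% of the genes that have one.

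The labels do not say whether the replicate numbers pair the mice, though same-numbered libraries lie in the same title number range. The correlation of deviations of same-numbered libraries was 0.13, 0.18, 0.084 and 0.057. This cannot decide the question, since libraries with different numbers were not set beside them. With the replicate number as a block, 0 members and 0 genes passed, and the median log2 fold change of the members was 0.24. In that fit 12 members were higher in cKO with an unadjusted p-value under 0.05, against 2.85% of all genes. Depth limits Mx1, with 7 to 50 counts in a library, and Oas2 and Oas3.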

Other observations

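The median standard deviation of log2 CPM over the 49 members was 0.25 in CTR and 0.30 in cKO, and it was larger in cKO for 30 of the 49 (61.2%), against 49.3% of all genes tested. The summed level of the 49 members was 4262 to 4723 CPM in CTR and 4851 to 6308 CPM in cKO, and Ifitm3 with Lgals3bp accounted for 2084 to 2347 CPM of it in CTR and 2473 to 2908 CPM in cKO.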
